A study of Mus musculus with 12 samples.

Results

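The protocadherin genes measured here numbered 34 of the 19938 genes on the arrays. They were every gene whose symbol in the array annotation began with Pcdh and that had a probe set carrying that symbol alone. They comprised the 22 genes of the beta cluster, Pcdhb1 to Pcdhb22, and 12 protocadherins that lie outside the clusters. The set was chosen by measured values of these arrays, a block of Pcdhb genes that was high in ES adipocytes, so every comparison with ES adipocytes is given as a description without a test. The comparisons among the other groups were not used for that choice and were tested.

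The study set cultured mouse adipocyte models beside fat tissue on Affymetrix arrays hybridised with biotin-labelled cDNA from 300 ng of total RNA. ES adipocytes were differentiated from mouse embryonic stem cells. PMEF adipocytes came from primary mouse embryonic fibroblasts. 3T3-L1 adipocytes came from 3T3-L1, an established clonal line of mouse preadipocytes. The eWAT samples were epididymal white adipose tissue isolated from healthy wild-type mice. Each group held 3 biological replicates, 1 array each. The labels used here give no strain, age or sex, no passage number and no name of the ES line. Values are the deposited log2 intensities, on which a difference of 1 is a 2-fold change.

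Protocadherins are the largest family of cadherins, calcium-dependent adhesion proteins of the cell surface. The clustered genes are expressed in different combinations by single neurons, which gives each neuron a surface identity, and the promoter of each gene is switched on or silenced on its own, with the insulator protein Ctcf, cohesin and DNA methylation taking part. The non-clustered protocadherins, most of them called delta protocadherins, act in cell sorting, cell movement and the wiring of the brain, and several are known from mesenchymal and vascular cells.

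Array medians over all genes were 6.31 to 6.35 in ES adipocytes, PMEF adipocytes and eWAT but 6.11 to 6.12 in 3T3-L1 adipocytes. The mean over 14 fat cell markers was high in every group. Array means were 11.44 to 11.45 in ES adipocytes and 10.62 to 10.72 in PMEF adipocytes. They were 10.25 to 10.3 in 3T3-L1 adipocytes and 11.81 to 11.97 in eWAT. Not every marker was bright in every group. Lep read 4.65, 4.1 and 4.81 in 3T3-L1 adipocytes and 5.78, 5.45 and 6.02 in PMEF adipocytes. In eWAT it read 11.14, 10.23 and 9.96. Rbp4 lay between 4.78 and 5.3 in 3T3-L1 adipocytes, against 11.78 to 11.98 in eWAT. Adipoq, the adipocyte hormone adiponectin, lay between 11.44 and 12.47 on the 12 arrays. Means over 12 markers of undifferentiated stem cells were 5.09 to 5.18 in ES adipocytes, against 5.04 to 5.29 in PMEF adipocytes, 4.92 to 5.01 in 3T3-L1 adipocytes and 4.93 to 5.0 in eWAT. The pluripotency factor Pou5f1 was dim in all groups, at 4.31, 4.18 and 4.15 in ES adipocytes and 3.69, 3.72 and 3.51 in eWAT.

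In ES adipocytes a subset of the beta cluster was high. At least 2-fold higher levels than in PMEF adipocytes were seen for 6 of 22 Pcdhb genes, against 2.54% of all genes. The same count was 7 of 22 over 3T3-L1 adipocytes, against 5.34% of all genes, and 6 of 22 over eWAT, against 4.39% of all genes. Of the 22 genes, 0, 1 and 0 were at least 2-fold lower in these comparisons, against 4.17%, 2.81% and 5.86% of all genes. All ES arrays lay above all arrays of the other group for 13 of 22 genes in each comparison, where 28.3%, 25.9% and 33.6% of all genes did, and below them for 2, 3 and 2 genes, where 24.1%, 29.5% and 24.3% did. These counts restate the choice of the set and carry no test. The median difference over the 22 genes was 0.38 for ES minus PMEF adipocytes, 0.43 for ES minus 3T3-L1 adipocytes and 0.39 for ES adipocytes minus eWAT, beside medians over all genes of -0.02, -0.02 and 0.04. Without the dimmest 33.3% of genes, 8 Pcdhb genes were left, with medians of 0.04, -0.05 and 0.27. That filter, on the mean over all arrays, removed Pcdhb2, Pcdhb3, Pcdhb6, Pcdhb7, Pcdhb10 and Pcdhb12, which are 6 of the 7 genes at least 2-fold higher in ES than in 3T3-L1 adipocytes, and these medians therefore describe other genes. The comparisons share the ES arrays.

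Pcdhb11, a beta protocadherin like the others named in this paragraph, showed the largest separation. It read 7.25, 7.27 and 7.18 in ES adipocytes, against 4.94, 4.81 and 4.76 in PMEF adipocytes, 5.01, 4.96 and 4.86 in 3T3-L1 adipocytes and 4.90, 5.10 and 5.09 in eWAT. Its differences were 2.39 ± 0.08 for ES minus PMEF adipocytes, 2.29 ± 0.08 for ES minus 3T3-L1 adipocytes and 2.20 ± 0.08 for ES adipocytes minus eWAT (SE, n = 3 each). The 3 ES arrays stood together well above the remaining 9, which lay within a narrow band. Pcdhb6 had the same layout at lower height, with 6.08, 6.26 and 6.12 in ES adipocytes, 4.73, 4.85 and 4.53 in PMEF adipocytes, 4.61, 4.57 and 4.8 in 3T3-L1 adipocytes and 4.93, 4.99 and 4.8 in eWAT. Pcdhb12 read 5.78, 6.27 and 6.28 in ES adipocytes, 4.56, 4.68 and 4.53 in PMEF adipocytes, 4.77, 4.55 and 4.37 in 3T3-L1 adipocytes and 4.84, 4.90 and 4.93 in eWAT. No ES array of Pcdhb6 or Pcdhb12 overlapped any other array, although ES replicate 1 was the lowest of its group for Pcdhb12.

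Pcdhb2, Pcdhb3, Pcdhb7 and Pcdhb10 were also high in ES adipocytes. Pcdhb3 read 6.05, 5.92 and 5.57 in ES adipocytes, 4.81, 4.69 and 4.74 in PMEF adipocytes, 4.57, 4.23 and 4.14 in 3T3-L1 adipocytes and 4.5, 4.73 and 4.85 in eWAT. Pcdhb7 read 5.82, 6.19 and 5.82 in ES adipocytes, 4.64, 4.64 and 5.15 in PMEF adipocytes, 4.73, 4.43 and 4.63 in 3T3-L1 adipocytes and 4.87, 4.73 and 5.09 in eWAT. For both genes every ES array lay above the other 9. Pcdhb10 differed by 1.15 between ES and PMEF adipocytes, by 1.23 between ES and 3T3-L1 adipocytes and by 0.91 between ES adipocytes and eWAT. The smallest of the differences for Pcdhb2 was that over PMEF adipocytes, at 0.81, from 5.90, 6.37 and 5.84 in ES adipocytes and 5.13, 5.24 and 5.31 in PMEF adipocytes. In all, 10 of 22 Pcdhb genes (45.5%) had every ES array above every other array, against 8.31% of all genes. The 10 were these 7 genes with Pcdhb5, Pcdhb8 and Pcdhb13, which showed differences of 0.41 to 0.78.

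**Figure D1:**
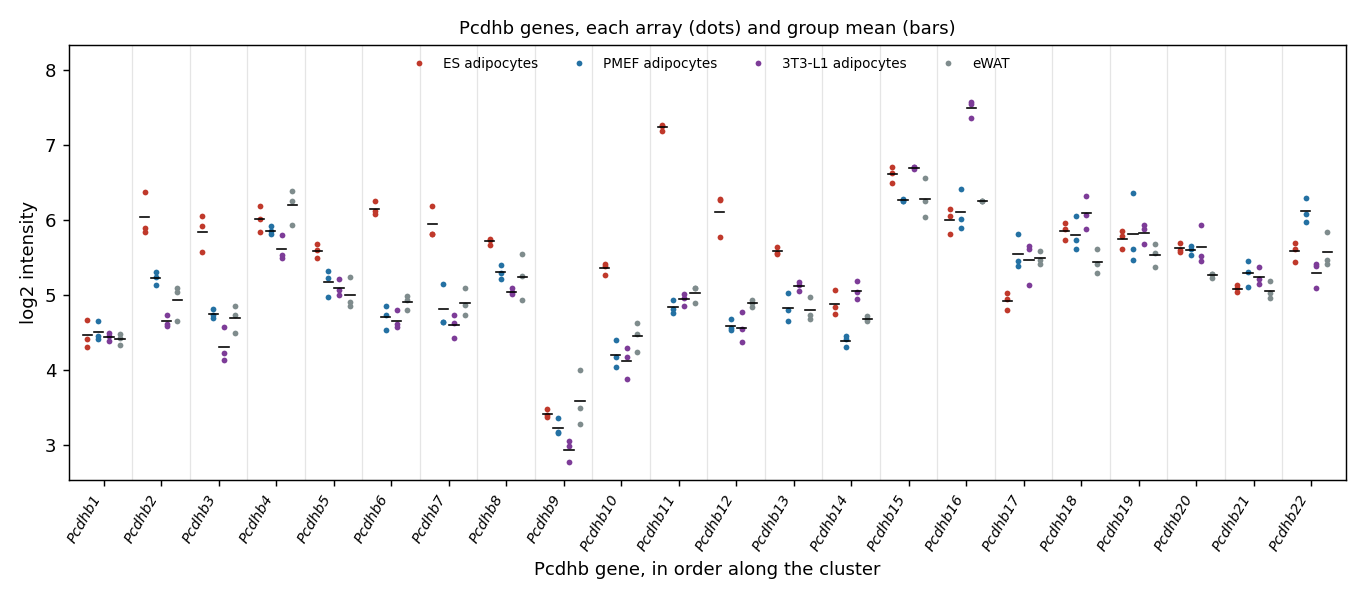
Log2 intensity of each Pcdhb gene (vertical axis) by array, with genes in chromosomal order (horizontal axis), dots for single arrays and short bars for group means of 3 arrays. The ES dots stand apart for Pcdhb11, at 7.18 to 7.27, and the 3T3-L1 dots for Pcdhb16, at 7.36 to 7.57.

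The elevation did not extend over the whole cluster. In RefSeq annotation of GRCm38.p6 the 22 genes lie in the order of their numbers on chromosome 18, from Pcdhb1 at 37264998 to Pcdhb22 ending at 37521419. The 7 genes at least 2-fold higher in ES than in 3T3-L1 adipocytes all lay among the first 13. A division after Pcdhb13 was chosen after the values were seen and is not tested. The first 13 genes had median differences of 0.81 for ES minus PMEF adipocytes, 1.23 for ES minus 3T3-L1 adipocytes and 0.91 for ES adipocytes minus eWAT. The last 9 genes had medians of -0.07, -0.16 and 0.20, and none of them was 2-fold higher in ES adipocytes. Across the 22 genes, which were read on the same arrays, Spearman's rho between position and difference was -0.54, -0.61 and -0.40 in the same order. A slope along the cluster was not particular to ES adipocytes. Without ES arrays, rho was 0.56 for 3T3-L1 adipocytes minus eWAT, -0.45 for PMEF minus 3T3-L1 adipocytes and 0.35 for PMEF adipocytes minus eWAT. For 3T3-L1 adipocytes minus eWAT the median was -0.28 over the first 13 genes and 0.37 over the last 9. High and low genes alternated inside the first 13: Pcdhb1, at 4.41, 4.67 and 4.31 in ES adipocytes and 4.33, 4.43 and 4.48 in eWAT, and Pcdhb9, the dimmest member at 3.40, 3.48 and 3.38 in ES adipocytes and 3.28, 4.0 and 3.50 in eWAT, overlapped between these groups.

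**Figure D2:**
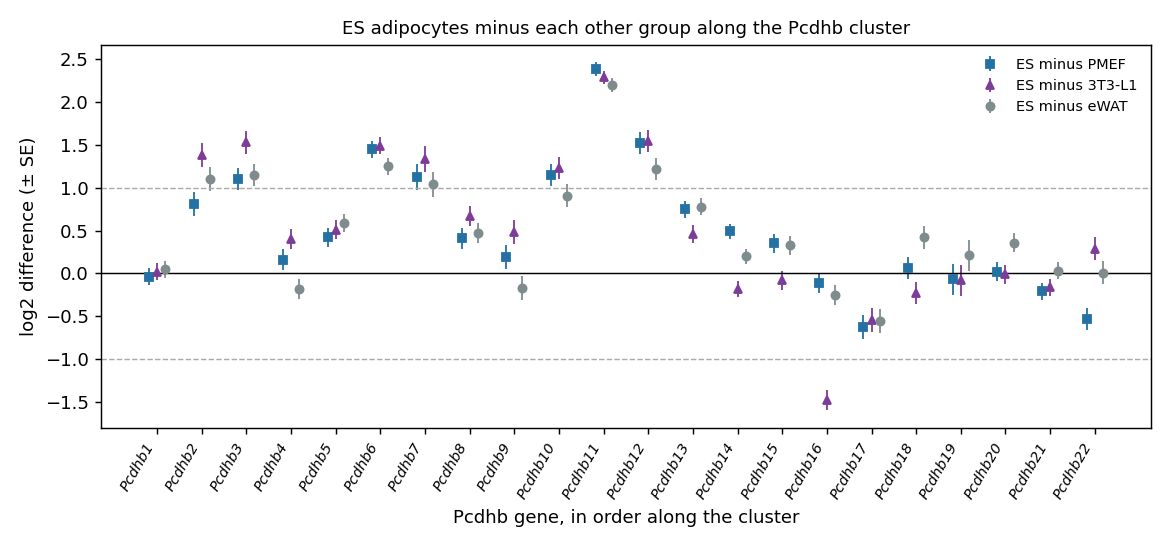
Difference in log2 intensity between ES adipocytes and each other group (vertical axis, ± SE, n = 3 arrays a group) for the Pcdhb genes in chromosomal order (horizontal axis), with dashed lines at a 2-fold difference. Points above the upper line occur among the first 13 genes only, Pcdhb11 is the highest at 2.20 to 2.39, and the 3T3-L1 point of Pcdhb16 is the lowest at -1.48.

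Pcdhb17 ran the other way in ES adipocytes. It read 4.8, 5.03 and 4.95 in ES adipocytes, against 5.82, 5.39 and 5.45 in PMEF adipocytes, 5.14, 5.62 and 5.65 in 3T3-L1 adipocytes and 5.59, 5.41 and 5.47 in eWAT. All 3 ES arrays were below the other 9. One further probe set carried 14 symbols of the neighbouring alpha cluster and was kept out of the set, since it names no single gene. It read 5.27, 5.37 and 5.21 in ES adipocytes, 4.92, 5.17 and 5.09 in PMEF adipocytes, 4.92, 4.96 and 5.05 in 3T3-L1 adipocytes and 4.88, 4.84 and 4.92 in eWAT. Genes of the gamma cluster were not analysed here. The Pcdhb genes resemble each other closely in sequence, so signal shared between their probe sets cannot be told apart, and single members are uncertain to that extent.

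The level of these genes was low in absolute terms. As a rough guide chosen after the values were seen, 1194 olfactory and vomeronasal receptor genes, which are silent in most tissues, had a 95th percentile of 5.07 in ES adipocytes, 5.22 in PMEF adipocytes, 5.12 in 3T3-L1 adipocytes and 5.25 in eWAT. Group means lay above that mark for 18 of 22 Pcdhb genes in ES adipocytes, 11 in PMEF adipocytes, 10 in 3T3-L1 adipocytes and 9 in eWAT. The ES count restates the choice of the set. Array medians over all genes, 6.11 to 6.35, also lay above the mark, so passing it does not set a gene apart. Pcdhb11 was the clearest case, above the mark in ES adipocytes and below it in each other group.

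Some markers of neurons and glia were also higher in ES adipocytes. The means over 23 markers were 5.82 to 6.19 on the ES arrays, 5.38 to 5.54 on the PMEF arrays, 5.12 to 5.18 on the 3T3-L1 arrays and 5.36 to 5.42 on the eWAT arrays. Of the 23, 6 were at least 2-fold higher in ES than in PMEF adipocytes, 7 than in 3T3-L1 adipocytes and 9 than in eWAT, where 2.54%, 5.34% and 4.39% of all genes were. At least 2-fold lower were 0, 0 and 2 of them, where 4.17%, 2.81% and 5.86% of all genes were. Those 2 were Nes, a filament protein of neural progenitors, at -1.64, and the myelin protein Mbp, at -1.33, both against eWAT. Dcx, a microtubule protein of young neurons, read 5.78, 6.0 and 5.57 in ES adipocytes, 3.87, 4.45 and 4.33 in PMEF adipocytes, 3.95, 4.37 and 4.38 in 3T3-L1 adipocytes and 4.2, 3.99 and 3.95 in eWAT. Snap25, a protein of synaptic vesicle release, read 6.40, 6.90 and 6.46 in ES adipocytes and 5.45, 5.57 and 5.61 in eWAT. The neuronal tubulin Tubb3 stayed near background, at 4.63, 4.78 and 4.73 in ES adipocytes and 4.82, 4.67 and 4.74 in PMEF adipocytes. Among glial markers, Gfap, the filament protein of astrocytes, read 6.68, 7.19 and 6.87 in ES adipocytes, 4.84, 5.07 and 4.91 in PMEF adipocytes, 5.08, 5.09 and 5.10 in 3T3-L1 adipocytes and 4.72, 5.10 and 4.90 in eWAT. The glial factor Sox10 read 6.04, 6.18 and 6.16 in ES adipocytes and 6.16, 6.28 and 6.32 in eWAT. The part of such cells in the Pcdhb values was not tested. In bulk RNA a larger number of cells of a type and more RNA per cell cannot be told apart.

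Of 19 genes that flank or separate the protocadherin clusters on chromosome 18, 18 were measured, and 0 of them were 2-fold higher in ES adipocytes than in PMEF adipocytes, 3T3-L1 adipocytes or eWAT. With 2.54%, 5.34% and 4.39% of all genes past that mark, a count of 0 among 18 is near the background. Their median differences were 0.05, -0.12 and 0.06. Taf7, a subunit of the general transcription factor TFIID that lies between the beta and gamma clusters, read 5.74, 5.60 and 5.56 in ES adipocytes, 5.12, 5.13 and 5.06 in PMEF adipocytes, 6.36, 6.24 and 6.33 in 3T3-L1 adipocytes and 5.57, 5.48 and 5.53 in eWAT. It was highest in 3T3-L1 adipocytes, not in ES adipocytes. Slc25a2, a mitochondrial ornithine carrier in the same interval, differed by 0.05 ± 0.13 for ES minus PMEF adipocytes, -0.22 ± 0.13 for ES minus 3T3-L1 adipocytes and -0.16 ± 0.13 for ES adipocytes minus eWAT. The 2 neighbours at least 2-fold lower in ES adipocytes than in eWAT were Arap3, at -2.11, and Cd14, the monocyte coreceptor for lipopolysaccharide, at -2.09.

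Among 19 measured regulators of clustered protocadherin promoters, Tet1 was the one at least 2-fold higher in ES adipocytes, over 3T3-L1 adipocytes and eWAT. Tet1, which oxidises methylated cytosine, read 7.90, 8.08 and 8.01 in ES adipocytes, 8.68, 8.46 and 8.46 in PMEF adipocytes, 5.94, 6.13 and 6.36 in 3T3-L1 adipocytes and 6.18, 6.26 and 6.19 in eWAT. It was thus high in ES and PMEF adipocytes alike. Tet2, which has the same activity, read 8.22, 8.16 and 8.23 in ES adipocytes, 7.47, 7.33 and 7.18 in PMEF adipocytes, 7.56, 7.62 and 7.54 in 3T3-L1 adipocytes and 7.74, 7.85 and 7.75 in eWAT. Wapl, which releases cohesin from DNA, read 8.55, 8.64 and 8.58 in ES adipocytes, 7.95, 7.70 and 7.78 in PMEF adipocytes, 8.32, 8.46 and 8.26 in 3T3-L1 adipocytes and 8.33, 8.09 and 8.32 in eWAT. Every ES array of Tet2 and Wapl lay above the other 9, with differences of 0.24 to 0.88, and so did the ES arrays of the cohesin subunit Stag2, with differences of 0.18 to 0.39. These 3 of 19 regulators stand beside 8.31% of all genes. Tet1 rose by 2.39 ± 0.10 in PMEF over 3T3-L1 adipocytes (limma, adjusted p = 3.03e-10) and by 2.32 ± 0.10 over eWAT (adjusted p = 5.26e-10). Smchd1, a chromatin protein that keeps clustered protocadherin promoters silent, differed in ES adipocytes by 0.31, -0.10 and -0.18 from PMEF adipocytes, 3T3-L1 adipocytes and eWAT. Smchd1 fell by 0.41 in PMEF below 3T3-L1 adipocytes (adjusted p = 0.000248) and by 0.49 below eWAT (adjusted p = 7.13e-05). Ctcf, which binds these promoters, fell by 0.38 in PMEF below 3T3-L1 adipocytes (adjusted p = 0.000573) and differed by 0.03 between 3T3-L1 adipocytes and eWAT (adjusted p = 0.785). Rad21, a subunit of the cohesin ring, read 9.24, 9.39 and 9.34 in ES adipocytes, 9.0, 8.86 and 8.77 in PMEF adipocytes, 10.22, 10.22 and 10.17 in 3T3-L1 adipocytes and 9.44, 9.47 and 9.66 in eWAT.

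**Figure D3:**
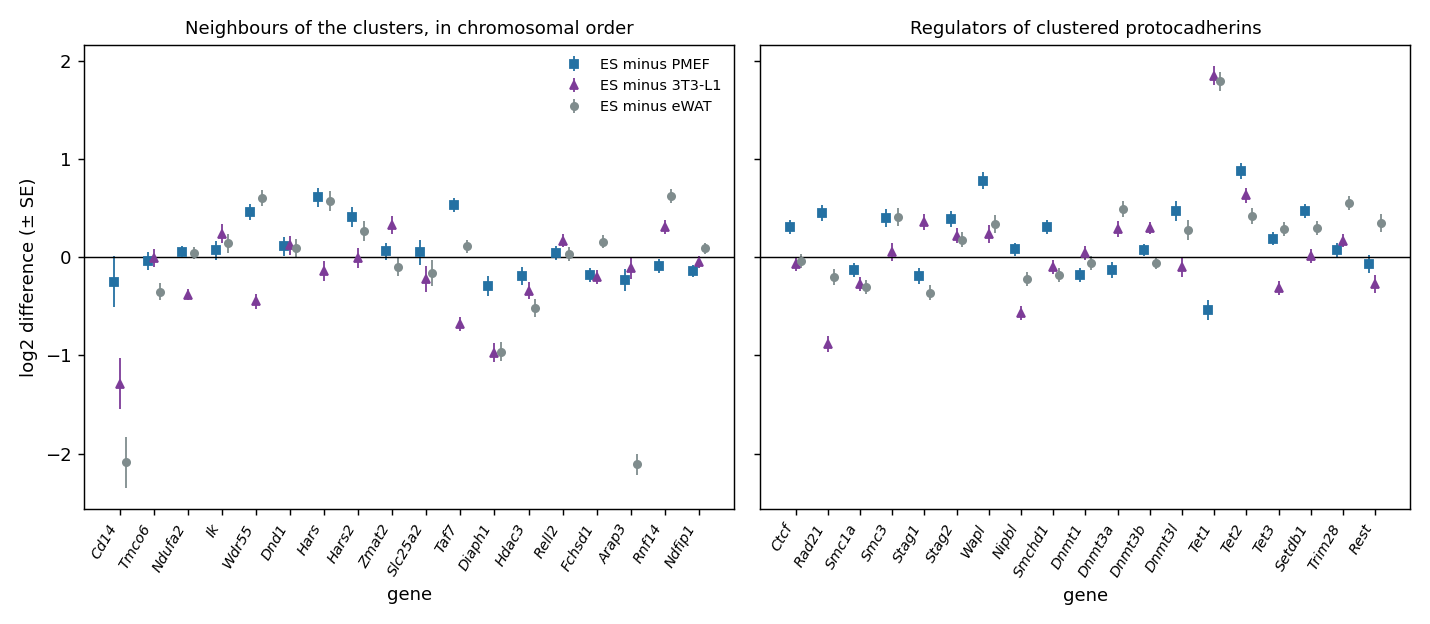
Difference in log2 intensity between ES adipocytes and each other group (vertical axis, ± SE, n = 3 arrays a group) for 18 neighbours of the clusters in chromosomal order (left) and 19 regulators of clustered protocadherins (right). No neighbour lies above a difference of 1, and Tet1 lies at 1.79 over eWAT and 1.85 over 3T3-L1 adipocytes but at -0.54 against PMEF adipocytes.

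The non-clustered protocadherins followed another order, with PMEF adipocytes on top. Array means over the 12 genes were 6.08 to 6.12 in ES adipocytes, 6.60 to 6.68 in PMEF adipocytes, 5.39 to 5.47 in 3T3-L1 adipocytes and 5.94 to 5.99 in eWAT. In 6 of the 12 every PMEF array lay above all other arrays, against 9.83% of all genes. These 6 were Pcdh7, Pcdh9, Pcdh10, Pcdh11x, Pcdh18 and Pcdh19, all of the delta subfamilies. The promoters of the 5 of them found in the RefSeq table of promoters are shown because these genes moved together. The table held 9 of the 34 genes. Each sequence runs 5′ to 3′ on the strand of the gene and covers 300 bases around an annotated transcription start in GRCm38.p6, with most of them upstream. In each, capitals mark GC boxes (GGGCGG or CCGCCC) and CCAAT boxes (CCAAT or ATTGG).
Pcdh18, chr3:49757267-49757566, minus strand: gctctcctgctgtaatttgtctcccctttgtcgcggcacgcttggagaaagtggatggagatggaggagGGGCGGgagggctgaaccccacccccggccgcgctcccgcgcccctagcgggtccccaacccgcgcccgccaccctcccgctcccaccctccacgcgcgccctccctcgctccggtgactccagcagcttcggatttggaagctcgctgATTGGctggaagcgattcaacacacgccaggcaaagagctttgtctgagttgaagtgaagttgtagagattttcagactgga
Pcdh7, chr5:57717831-57718130, plus strand: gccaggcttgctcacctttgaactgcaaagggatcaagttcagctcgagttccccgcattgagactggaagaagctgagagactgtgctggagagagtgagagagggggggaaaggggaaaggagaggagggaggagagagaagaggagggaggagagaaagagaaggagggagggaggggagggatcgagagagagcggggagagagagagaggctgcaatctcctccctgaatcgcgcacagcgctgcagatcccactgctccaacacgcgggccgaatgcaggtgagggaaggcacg
Pcdh9, chr14:93890630-93890929, minus strand: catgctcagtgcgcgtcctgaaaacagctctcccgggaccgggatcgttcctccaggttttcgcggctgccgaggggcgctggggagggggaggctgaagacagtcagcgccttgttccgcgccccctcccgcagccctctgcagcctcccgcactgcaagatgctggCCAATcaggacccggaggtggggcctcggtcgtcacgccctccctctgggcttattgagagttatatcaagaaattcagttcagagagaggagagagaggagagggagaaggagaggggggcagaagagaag
Pcdh19, chrX:133688944-133689243, minus strand: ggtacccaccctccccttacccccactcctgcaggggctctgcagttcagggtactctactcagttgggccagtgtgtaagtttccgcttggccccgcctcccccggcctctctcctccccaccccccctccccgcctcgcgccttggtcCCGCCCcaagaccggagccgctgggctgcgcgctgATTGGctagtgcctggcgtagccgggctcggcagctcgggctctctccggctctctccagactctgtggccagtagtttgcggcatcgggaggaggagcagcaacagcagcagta
Pcdh10, chr3:45378148-45378447, plus strand: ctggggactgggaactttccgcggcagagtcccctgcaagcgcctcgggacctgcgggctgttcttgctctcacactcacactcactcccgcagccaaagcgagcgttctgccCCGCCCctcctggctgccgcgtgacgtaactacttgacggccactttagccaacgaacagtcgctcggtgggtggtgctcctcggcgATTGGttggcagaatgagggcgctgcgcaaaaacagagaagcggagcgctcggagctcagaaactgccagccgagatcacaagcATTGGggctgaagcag
A GC box on either strand was present in Pcdh10, Pcdh18 and Pcdh19, and in 35.7% of the 32851 promoters of the table. A CCAAT box on either strand was present in all but Pcdh7, and in 37.4% of all promoters. No marked motif overlapped another. TATAAA or TTTATA was in none of the 5 windows, and in 13.6% of all promoters. The windows held 24 CG dinucleotides in Pcdh10, 23 in Pcdh18, 18 in Pcdh9, 18 in Pcdh19 and 11 in Pcdh7, where the median promoter held 7. The other protocadherins examined there, Pcdh8, Pcdh15, Pcdh17 and Pcdh20, each held a CCAAT box too. That box was thus not particular to the genes shown. Of these others, Pcdh17 held a GC box, and Pcdh8 and Pcdh15 held TATAAA or TTTATA. Their CG counts were 14, 8, 26 and 4, in the order named. These matches describe the letters and say nothing of binding.

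PMEF adipocytes and 3T3-L1 adipocytes, both derived from embryonic fibroblasts, were compared directly. Of the 34 protocadherins, 14 passed the test between them, 10 higher and 4 lower in PMEF adipocytes, where 50.1% of all genes passed. Of the 12 non-clustered genes 7 rose and 0 fell, where 22.3% of all genes rose and 27.8% fell. Changes of at least 2-fold numbered 7 of the 34, against 12.5% of all genes, with 6 rises, all outside the beta cluster, and 1 fall, where 7.32% and 5.21% of all genes rose and fell so far. The median difference over the 12 was 0.79, beside 0.01 over all genes.

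Pcdh18, a delta protocadherin that binds the adaptor Dab1, read 9.28, 9.17 and 9.08 in PMEF adipocytes, against 6.32, 5.91 and 6.19 in 3T3-L1 adipocytes, and rose by 3.04 ± 0.09 (limma, adjusted p = 1.01e-11). Pcdh7, a delta protocadherin with an intracellular site for protein phosphatase 1, read 9.41, 9.33 and 9.29 in PMEF adipocytes, against 6.22, 6.21 and 6.61 in 3T3-L1 adipocytes, and rose by 3.00 ± 0.14 (adjusted p = 6.93e-10). The PMEF arrays were about 8-fold brighter for both genes, with folds of 8.21 and 7.98, and no array of the 2 groups came near another. ES adipocytes and eWAT lay between them: Pcdh18 read 7.56, 7.60 and 7.57 in ES adipocytes and 7.30, 7.35 and 7.31 in eWAT, and Pcdh7 read 8.38, 8.26 and 8.42 in ES adipocytes and 7.60, 8.22 and 7.87 in eWAT.

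Pcdh9, a delta protocadherin of brain circuits, read 8.28, 8.35 and 8.21 in PMEF adipocytes, against 5.70, 5.59 and 5.71 in 3T3-L1 adipocytes, and rose by 2.61 ± 0.08 (limma, adjusted p = 1.24e-11). ES adipocytes held an intermediate level of 7.02, 7.20 and 7.07. A second probe set for Pcdh9 gave 6.97, 7.03 and 6.99 in ES adipocytes, 8.25, 8.31 and 8.16 in PMEF adipocytes and 5.75, 5.49 and 5.86 in 3T3-L1 adipocytes, the same layout. Pcdh19, an X-linked delta protocadherin whose loss causes epilepsy in humans, read 8.27, 8.34 and 8.22 in PMEF adipocytes, against 6.07, 6.23 and 6.44 in 3T3-L1 adipocytes, and rose by 2.03 ± 0.10 (adjusted p = 9.91e-10). Its ES values of 6.66, 6.90 and 6.87 lay above 3T3-L1 adipocytes but below the eWAT values of 7.02, 7.09 and 6.90, although ES replicate 2 and eWAT replicate 3 differed only beyond the second decimal.

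Pcdh11x, also X-linked, was dimmer, at 6.67, 6.68 and 6.66 in PMEF adipocytes and 4.33, 5.01 and 4.84 in 3T3-L1 adipocytes, and rose by 1.94 ± 0.14 (limma, adjusted p = 6.42e-08). Pcdh10, which recruits the WAVE actin regulators through Nckap1, read 6.18, 5.90 and 5.82 in PMEF adipocytes, against 4.90, 4.83 and 4.67 in 3T3-L1 adipocytes, and rose by 1.16 ± 0.11 (adjusted p = 5.25e-07). For both genes the ES arrays lay between, at 6.31, 6.21 and 6.09 for Pcdh11x and 5.37, 5.53 and 5.30 for Pcdh10. Pcdh17, which also recruits WAVE proteins, rose by 0.41 ± 0.11 (adjusted p = 0.00631). With quantile normalization the call for Pcdh17 was lost (adjusted p = 0.109), as it was with array medians centred (adjusted p = 0.131).

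**Figure D4:**
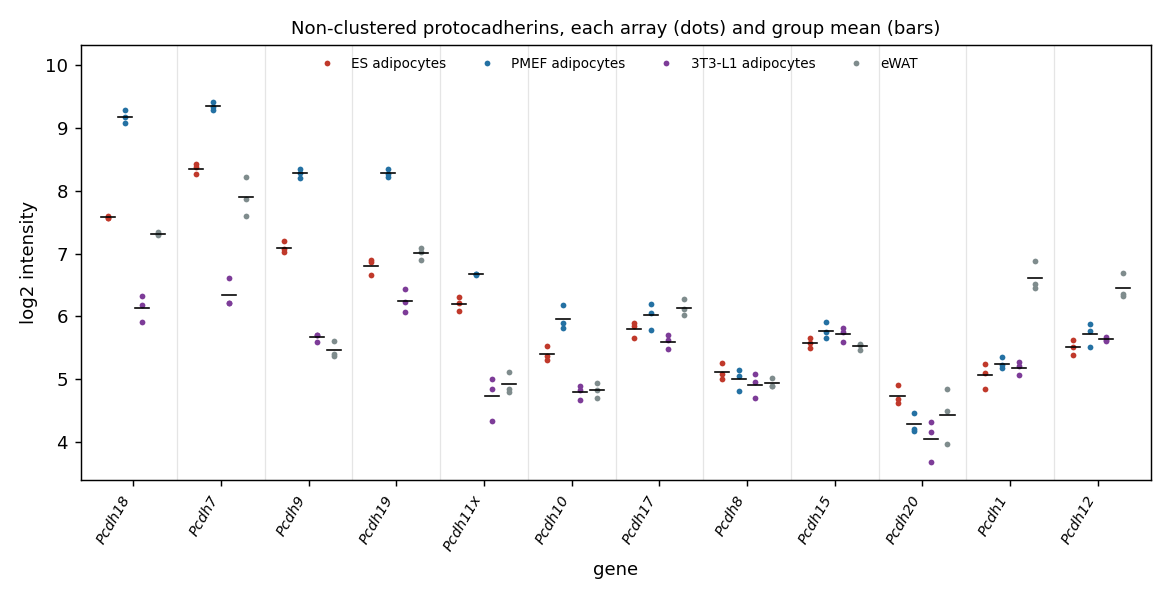
Log2 intensity (vertical axis) of the 12 non-clustered protocadherins (horizontal axis) by array, with dots for single arrays and short bars for group means of 3 arrays. PMEF adipocytes top the first 6 genes, with Pcdh18 at 9.08 to 9.28, while eWAT tops Pcdh1, at 6.45 to 6.89, and Pcdh12, at 6.33 to 6.69.

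The mean of the fibroblast and progenitor markers was likewise highest in PMEF and lowest in 3T3-L1 adipocytes. Means over 14 such markers were 9.09 to 9.15 on the ES arrays, 10.72 to 10.74 on the PMEF arrays, 7.61 to 7.63 on the 3T3-L1 arrays and 9.57 to 9.68 on the eWAT arrays. All 14 rose in PMEF over 3T3-L1 adipocytes, where 22.3% of all genes rose. Relative to eWAT 11 rose and 2 fell in PMEF adipocytes, where 24.7% of all genes rose and 21.6% fell. The progenitor markers Pi16, which fell by 2.23 (limma, adjusted p = 3.27e-10), and Dpp4, which fell by 1.55 (adjusted p = 8.15e-07), were highest in eWAT. Markers of mesothelium, the lining of body cavities, averaged 6.65 to 6.69 in ES adipocytes and 7.08 to 7.12 in PMEF adipocytes. They averaged 5.23 to 5.31 in 3T3-L1 adipocytes and 5.31 to 5.44 in eWAT. Of these markers 10 of 10 rose in PMEF over 3T3-L1 adipocytes, beside the same 22.3% of all genes. The part of these cells in the protocadherin differences was not tested.

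The beta cluster had no common direction between the fibroblast-derived models. Of 22 Pcdhb genes 3 rose and 4 fell in PMEF relative to 3T3-L1 adipocytes, where 22.3% of all genes rose and 27.8% fell. The median difference was 0.05. Pcdhb16 was the exception in size. It read 6.42, 5.90 and 6.02 in PMEF adipocytes, against 7.36, 7.55 and 7.57 in 3T3-L1 adipocytes, and fell by 1.38 on the log2 scale (SE 0.12, limma, adjusted p = 3.96e-07). Pcdhb16 read 6.15, 6.05 and 5.82 in ES adipocytes and 6.25, 6.26 and 6.26 in eWAT, so that the 3T3-L1 arrays alone were high. Pcdhb22, the last gene of the cluster, read 6.30, 6.08 and 5.97 in PMEF adipocytes, against 5.09, 5.39 and 5.41 in 3T3-L1 adipocytes, and rose by 0.82 ± 0.13 (adjusted p = 0.000104). Pcdhb14 fell by 0.67 (adjusted p = 2.28e-05) and Pcdhb15 by 0.43 (adjusted p = 0.00406) in PMEF adipocytes, and Pcdhb2 rose by 0.58 ± 0.14 (adjusted p = 0.0031).

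The calls for Pcdhb3 and Pcdhb13 between PMEF and 3T3-L1 adipocytes were less stable. Pcdhb3 rose by 0.44, with an adjusted p of 0.0541 without 3T3-L1 replicate 2 and 0.0715 without 3T3-L1 replicate 3. Pcdhb13 fell by 0.30, with an adjusted p of 0.0625 without 3T3-L1 replicate 2, 0.0755 without 3T3-L1 replicate 3, 0.12 without PMEF replicate 2 and 0.0646 without PMEF replicate 3.

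Against eWAT, PMEF adipocytes had 14 protocadherins past the test, 10 higher and 4 lower, where 46.3% of all genes passed. At least 2-fold changes numbered 7, of which 6 rose and 1 fell, where 10.4% of all genes passed that mark, 4.92% as rises and 5.46% as falls. Of the 12 non-clustered genes 7 rose and 2 fell, where 24.7% of all genes rose and 21.6% fell. Pcdh9 rose most, to 8.28, 8.35 and 8.21 in PMEF adipocytes, against 5.37, 5.61 and 5.40 in eWAT, a difference of 2.82 ± 0.08 (limma, adjusted p = 1.09e-11). Pcdh18 rose by 1.86 ± 0.09 (adjusted p = 1.84e-09), Pcdh11x by 1.75 ± 0.14 (adjusted p = 2.54e-07), Pcdh7 by 1.45 ± 0.14 (adjusted p = 1.36e-06), Pcdh19 by 1.27 ± 0.10 (adjusted p = 1.48e-07) and Pcdh10 by 1.14 ± 0.11 (adjusted p = 9.35e-07). For these 6 genes the PMEF arrays did not overlap the eWAT arrays. Pcdh15, which forms the tip links of inner ear hair cells, rose by 0.25 ± 0.08 (adjusted p = 0.0252), a call lost without PMEF replicate 3 (adjusted p = 0.112) and without eWAT replicate 2 (adjusted p = 0.0782). A second, dimmer probe set for Pcdh15 read 4.61, 4.78 and 4.7 in PMEF adipocytes and 4.23, 4.21 and 4.28 in eWAT. It read 4.42, 4.4 and 4.43 in 3T3-L1 adipocytes, so its PMEF arrays lay above both groups.

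Of the 22 Pcdhb genes, 3 rose and 2 fell in PMEF adipocytes relative to eWAT, where 24.7% of all genes rose and 21.6% fell. At least 2-fold changes numbered 0, where 10.4% of all genes passed that mark, and the median difference was 0.04. Pcdhb22 rose by 0.54 ± 0.13 (limma, adjusted p = 0.00349) and was called in every alternative run. Pcdhb20 rose by 0.34 but had an adjusted p of 0.0534 without PMEF replicate 1 and 0.0519 without eWAT replicate 2, and Pcdhb14 fell by 0.30 with an adjusted p of 0.0591 without PMEF replicate 3. Pcdhb18 rose by 0.36 and lost the call without PMEF replicates 1 or 3, eWAT replicates 1 or 3, 3T3-L1 replicate 3 or ES replicate 3 (adjusted p 0.0501 to 0.163). Pcdhb4 fell by 0.33 and lost it without any PMEF replicate, eWAT replicates 2 or 3 or ES replicate 2 (adjusted p 0.0504 to 0.161).

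In 3T3-L1 adipocytes against eWAT, 19 of the 34 protocadherins passed the test, 7 higher and 12 lower, where 53.3% of all genes passed. At least 2-fold changes numbered 4, with 1 rise and 3 falls, where 14.5% of all genes passed that mark, 6.05% as rises and 8.49% as falls. This comparison and the PMEF comparison share the eWAT arrays. The division between higher and lower depended on scaling: it was 10 and 8 with quantile normalization, 12 and 8 with array medians centred and 8 and 9 with reference genes centred. Of the non-clustered genes 6 fell and 1 rose, where 22.5% of all genes fell and 30.8% rose, and their median difference was -0.46. Pcdh7 read 6.22, 6.21 and 6.61 in 3T3-L1 adipocytes, against 7.60, 8.22 and 7.87 in eWAT, and fell by 1.55 on the log2 scale (SE 0.14, limma, adjusted p = 4.58e-07). Pcdh18 fell by 1.18 (adjusted p = 1.17e-07), Pcdh19 by 0.75 (adjusted p = 1.66e-05) and Pcdh17 by 0.54 (adjusted p = 0.00088).

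Pcdh9 alone of the non-clustered genes rose in 3T3-L1 adipocytes over eWAT, by 0.21 ± 0.08 (limma, adjusted p = 0.0453). That call did not hold without 3T3-L1 replicates 1 or 3, eWAT replicates 1 or 3, PMEF replicates 1 or 2 or ES replicates 1 or 3 (adjusted p 0.0508 to 0.144), nor with a mean of its probe sets (adjusted p = 0.059).

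Of the 22 Pcdhb genes, 6 were higher and 6 lower in 3T3-L1 adipocytes than in eWAT, close to the 30.8% and 22.5% of all genes that were. The 6 higher genes, from Pcdhb13 on, all lay further along the cluster than the 6 lower ones. That order was seen in the values and was not tested. Pcdhb16 rose by 1.23 ± 0.12 (limma, adjusted p = 1.08e-06), Pcdhb18 by 0.65 ± 0.13 (adjusted p = 0.000839), Pcdhb15 by 0.41 ± 0.11, Pcdhb14 by 0.37 ± 0.09 and Pcdhb20 by 0.37 ± 0.11. Pcdhb9 fell by 0.65 (adjusted p = 0.00168) and Pcdhb4 by 0.58 (adjusted p = 0.0011). The Pcdhb9 means, 2.94 in 3T3-L1 adipocytes and 3.59 in eWAT, were below the medians of the olfactory and vomeronasal receptor genes, 3.54 and 3.72. These 7 calls held in every alternative run, apart from genes left out by the filter on dim genes, and the 5 further calls did not. Those were Pcdhb13, which rose, and Pcdhb3, Pcdhb6, Pcdhb10 and Pcdhb12, which fell by 0.25 to 0.38. Pcdhb13 lost the call without eWAT replicates 1 or 3 (adjusted p 0.0501 to 0.0568) and Pcdhb3 without 3T3-L1 replicates 2 or 3 or eWAT replicates 2 or 3 (adjusted p 0.0763 to 0.121). Pcdhb6 lost it without 3T3-L1 replicates 1 or 2, eWAT replicates 1 or 2, PMEF replicate 1 or ES replicates 1 or 3 (adjusted p 0.0526 to 0.148). Pcdhb10 lost it without 3T3-L1 replicates 1 or 2, eWAT replicates 1 or 3, PMEF replicate 3 or any ES replicate (adjusted p 0.0519 to 0.199). Pcdhb12 lost it without 3T3-L1 replicates 2 or 3, any PMEF replicate or any eWAT replicate (adjusted p 0.0575 to 0.195).

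Pcdh1 and Pcdh12 were highest in the tissue. Pcdh1, a delta protocadherin of epithelium, read 4.84, 5.24 and 5.10 in ES adipocytes, 5.22, 5.18 and 5.35 in PMEF adipocytes and 5.28, 5.21 and 5.07 in 3T3-L1 adipocytes, against 6.89, 6.45 and 6.51 in eWAT. Pcdh12, a protocadherin of endothelial junctions, read 5.62, 5.39 and 5.52 in ES adipocytes, 5.51, 5.88 and 5.77 in PMEF adipocytes and 5.62, 5.67 and 5.61 in 3T3-L1 adipocytes, against 6.69, 6.36 and 6.33 in eWAT. The 9 culture arrays lay together below every eWAT array for both genes, as in 11.3% of all genes. Pcdh1 fell by 1.37 in PMEF adipocytes (limma, adjusted p = 6.88e-07) and by 1.43 in 3T3-L1 adipocytes (adjusted p = 2.88e-07). Pcdh12 fell by 0.74 in PMEF adipocytes (adjusted p = 9.17e-05) and by 0.83 in 3T3-L1 adipocytes (adjusted p = 2.23e-05).

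Endothelial markers moved with these genes. Means over 15 markers were 5.57 to 5.69 in ES adipocytes, 5.88 to 5.93 in PMEF adipocytes and 5.27 to 5.31 in 3T3-L1 adipocytes, against 8.78 to 9.07 in eWAT. Of the 15, 14 fell in PMEF adipocytes and 15 in 3T3-L1 adipocytes, where 21.6% and 22.5% of all genes fell. Cdh5, the endothelial cadherin, read 6.47, 6.67 and 6.63 in ES adipocytes, 5.55, 5.48 and 5.62 in PMEF adipocytes and 4.86, 5.31 and 5.12 in 3T3-L1 adipocytes, against 11.19, 10.97 and 10.94 in eWAT. The adhesion molecule Pecam1 stayed under 6 on every culture array and was 9.78, 9.49 and 9.58 in eWAT. The part of vessel cells in the Pcdh1 and Pcdh12 differences was not tested.

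The other non-clustered members differed little. Pcdh8, a protocadherin induced by neural activity, passed no test between PMEF adipocytes, 3T3-L1 adipocytes and eWAT and lay between 4.70 and 5.26 on all 12 arrays. Pcdh20 was the dimmest non-clustered gene and passed no test between PMEF adipocytes, 3T3-L1 adipocytes and eWAT, with an SE of 0.20 in each comparison. Without eWAT replicate 1, Pcdh20 was called lower in 3T3-L1 adipocytes than in eWAT (adjusted p = 0.00911). Pcdh17 read 5.66, 5.89 and 5.84 in ES adipocytes, 5.79, 6.06 and 6.20 in PMEF adipocytes, 5.62, 5.70 and 5.48 in 3T3-L1 adipocytes and 6.27, 6.12 and 6.03 in eWAT.

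The wider cadherin family had members that moved like the non-clustered protocadherins. Of 19 classical cadherins, 8 rose and 0 fell in PMEF over 3T3-L1 adipocytes, where 22.3% of all genes rose and 27.8% fell. In PMEF adipocytes over eWAT 6 rose and 3 fell, near the 24.7% and 21.6% of all genes. Cdh11, the mesenchymal cadherin, read 9.89, 9.88 and 9.94 in ES adipocytes, 11.62, 11.56 and 11.52 in PMEF adipocytes, 8.14, 7.92 and 8.28 in 3T3-L1 adipocytes and 7.48, 7.39 and 7.07 in eWAT. Cdh11 rose by 3.45 ± 0.11 in PMEF over 3T3-L1 adipocytes (limma, adjusted p = 1.2e-11), and Cdh8, a type II cadherin of the brain, rose by 2.98 ± 0.20 (adjusted p = 2.42e-08). Among 25 other cadherin genes 9 rose and 2 fell in that comparison, among them Fat4, which rose by 2.70 ± 0.12 (adjusted p = 3.01e-10), and its ligand Dchs1, which rose by 2.62 ± 0.12 (adjusted p = 5.44e-10). In 3T3-L1 adipocytes against eWAT, 3 classical cadherins rose and 5 fell, and 2 of the other cadherins rose and 6 fell, where 30.8% of all genes rose and 22.5% fell, so that the falls were near the background.

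Signalling partners of protocadherins and catenins changed in both directions. Of 12 measured signalling partners, 6 rose and 3 fell in PMEF over 3T3-L1 adipocytes, where 22.3% of all genes rose and 27.8% fell. Ncstn, a subunit of the gamma-secretase that cleaves protocadherins, rose by 1.14 ± 0.06 (limma, adjusted p = 4.43e-09), and Wasf1, an actin regulator of the WAVE complex, fell by 0.73 (adjusted p = 5.72e-05). Against eWAT the same partners numbered 5 risen and 3 fallen in PMEF adipocytes and 2 risen and 5 fallen in 3T3-L1 adipocytes, beside 24.7% and 21.6% of all genes in PMEF adipocytes and 30.8% and 22.5% in 3T3-L1 adipocytes. Of 11 catenins, the cytoplasmic partners of classical cadherins, 6 rose and 1 fell in PMEF over 3T3-L1 adipocytes. Jup, the desmosomal plakoglobin, read 8.50, 8.57 and 8.48 in ES adipocytes, 9.28, 9.43 and 9.32 in PMEF adipocytes, 7.21, 7.37 and 7.38 in 3T3-L1 adipocytes and 9.83, 9.53 and 9.47 in eWAT. Jup rose by 2.03 ± 0.09 in PMEF over 3T3-L1 adipocytes (limma, adjusted p = 5.95e-10). In 3T3-L1 adipocytes against eWAT 4 catenins fell and 0 rose, among them Jup by 2.29 (adjusted p = 1.45e-10) and Pkp4, a catenin of cell junctions, by 2.14 (adjusted p = 1.98e-11), both further than any protocadherin fell in that comparison.

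**Figure D5:**
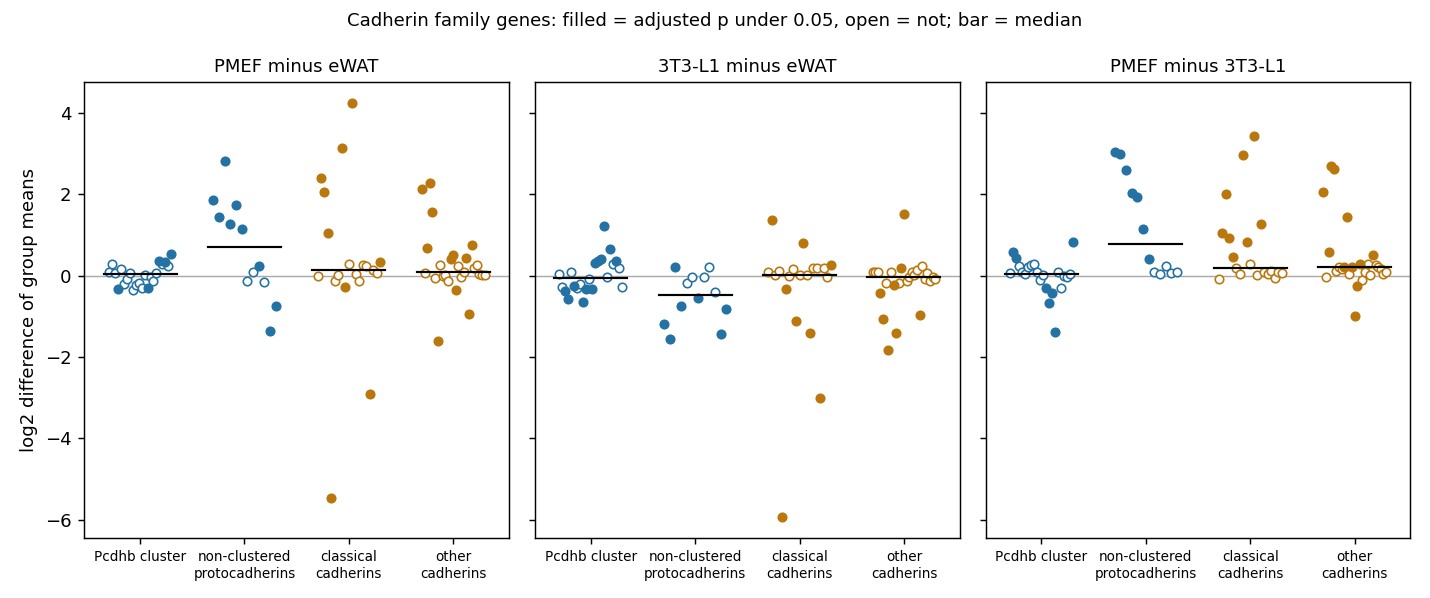
Difference in log2 intensity of group means (vertical axis) for each gene of 4 cadherin groups (horizontal axis) in the 3 tested comparisons, with filled dots past an adjusted p of 0.05, open dots not, and bars at the median. The 22 Pcdhb genes lie within -1.38 and 1.23 throughout, while non-clustered protocadherins reach 3.04 in PMEF minus 3T3-L1 adipocytes with 0 filled dots below zero.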

How the data were processed

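RNA had been extracted with TRIzol and copied into labelled cDNA with a WT Expression kit, per the labels. The deposited table holds 35556 probe sets on 12 arrays as log2 intensities, which the authors normalized by a method not given in the sources used here. Values ran from 1.11 to 13.48 and were used as deposited. Array annotation gave 1 symbol to 21789 probe sets, which were used, several to 1621 and none to 12146. The Entrez IDs of 21698 matched RefSeq. For genes with several probe sets the one with the highest mean stood for the gene, which left 19938 genes.

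With limma 3.58.1 (R 4.3.3) 1 mean per group was estimated from the 12 arrays, with 8 residual and 4.88 prior degrees of freedom, and adjusted p-values (Benjamini-Hochberg, all genes) under 0.05 were called. The fit was tested on simulated data. No detection calls were used, and the 3 arrays a group limit the precision. The members and gene lists were chosen with earlier results of these data known. Every protocadherin, cluster neighbour and regulator could be named, with up to 4 called risers and 4 called fallers of each other list and set markers. Sox10, Dcx, Gfap, Nes and Mbp were named after their values were seen. Alternatives changed scaling, the filter, the probe set rule, the variance model and the arrays.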

Additional observations from a re-analysis of the deposited data

Results flagged for a closer look

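Several protocadherins differed from eWAT in opposite directions in different models, with every array of one model above and every array of the other below the eWAT arrays. Pcdh18 did so in PMEF adipocytes (above) and 3T3-L1 adipocytes (below), and the tested difference between the models was 3.04. Pcdh7 and Pcdh19 did likewise, with tested differences of 3.00 and 2.03 between PMEF and 3T3-L1 adipocytes. Pcdhb14 lay below eWAT in PMEF adipocytes and above it in 3T3-L1 adipocytes, a tested difference of -0.67. Its group means were under the receptor mark in every group. Its call in PMEF adipocytes against eWAT was lost without PMEF replicate 3 (limma, adjusted p = 0.0591).

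Comparable opposite moves that involve ES adipocytes were not tested. For ES minus 3T3-L1 adipocytes these were Pcdh18 at 1.44, Pcdh7 at 2.01, Pcdhb6 at 1.49, Pcdhb12 at 1.55 and Pcdhb16 at -1.48. For ES minus PMEF adipocytes they were Pcdh19 at -1.47, Pcdhb12 at 1.52 and Pcdhb14 at 0.49. Some of the steps from eWAT were small. In 3T3-L1 adipocytes Pcdhb6 lay at -0.25 and Pcdhb12 at -0.32, calls that did not hold without single arrays. Both genes lay under the receptor mark there and in eWAT. In PMEF adipocytes Pcdhb12 lay at -0.30 and was not called (limma, adjusted p = 0.0728). In ES adipocytes Pcdh19 lay at -0.19, Pcdhb14 at 0.20, Pcdhb16 at -0.25 and Pcdh18 at 0.26.

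The probe set with 14 symbols of the alpha cluster, which entered no comparison, was higher by 0.40 in ES adipocytes than in eWAT, and the arrays of these groups did not overlap.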

How the results depend on the processing

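The median Pcdhb difference for ES adipocytes minus eWAT was 0.53 with reference genes centred and 0.27 without the dimmest 33.3% of genes, with 8 members left. ES minus PMEF adipocytes gave 0.04 without the dimmest genes. ES minus 3T3-L1 adipocytes gave 0.26 with quantile normalization, 0.23 with array medians centred, 0.53 with reference genes centred and -0.05 without the dimmest genes. The filter on dim genes removed 6 of the 7 Pcdhb genes at least 2-fold higher in ES than in 3T3-L1 adipocytes, so its medians, the change of sign included, do not test the main ones. Leaving out 1 array gave 0.33 to 0.49 for eWAT, 0.33 to 0.42 for PMEF adipocytes and 0.40 to 0.47 for 3T3-L1 adipocytes. Protocadherins called between PMEF and 3T3-L1 adipocytes numbered 9 without the dimmest genes, which kept 17 members. Centring of array medians moved the median of all genes to 0.256 for 3T3-L1 adipocytes minus eWAT and to -0.208 for PMEF minus 3T3-L1 adipocytes. Under it the sign changed for Tet2 (0.004) and Smc1a (0.182) in 3T3-L1 adipocytes minus eWAT. It also changed for Abi1 (-0.005), Pkp4 (-0.212) and Cdhr1 (-0.008) in PMEF minus 3T3-L1 adipocytes. Tet2, Abi1 and Cdhr1 thereby came close to no difference and did not turn to a clear opposite one. Beyond the effect of leaving out genes or arrays by construction, the cause was not tested. With the replicate number as a block, 15, 14 and 15 protocadherins were called for PMEF adipocytes minus eWAT, PMEF minus 3T3-L1 adipocytes and 3T3-L1 adipocytes minus eWAT. The numbers did not pair the arrays: over 18 same-number pairs r ran from -0.137 to 0.108, and 1 of 12 arrays correlated best with its own number. Leaving out 1 array gave 10 to 16, 12 to 16 and 15 to 19 calls in these comparisons. No detection calls were used, so which Pcdhb genes were above background on each array was not established.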
